A study of Mus musculus with 4 samples.

Results

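Mbp, Gpr17, Gfap and Hes5 are genes of glia and of neural progenitors, and their ribosome footprints were read as a measure of non-neuronal cells in 4 cultures of mouse cortical neurons. Each gene was found by its symbol among the 6352 transcripts of the deposited table and had 1 transcript there, so 4 of 6352 transcripts are described. These genes were chosen by their reads in the 4 libraries, and all values given for them are descriptions without a test. The study asked whether neurons without LTN1, a ligase of ribosome-associated quality control that marks stalled nascent chains, have lower translation initiation through the ligase TTC3. The cells were primary cultured cortical neurons, WT or Ltn1 KO, with scramble RNAi or Ttc3 RNAi, and each of these 4 conditions had 1 library. All cultures received harringtonine, which holds ribosomes at start codons, at 5 µg/ml for 3 min before lysis. The allele deleted in Ltn1, the strain and the age of the animals, and any agent given against dividing cells are not given in the sources used here.

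Titles and codes of the libraries contradict each other on the RNAi. By their titles, the libraries coded TTC had scramble RNAi and the libraries coded SC had Ttc3 RNAi, whereas the letters of the codes read the opposite way. The libraries are therefore called WT SC and WT TTC or, for the knockout, KO SC and KO TTC, where WT and KO are the labelled genotypes. Footprints of Ttc3 numbered 3 and 2 in WT SC and KO SC but 0 in both TTC libraries, which goes against the titles as far as so few reads can. Lower in KO were 46.3% of transcripts between the SC libraries and 42.1% between the TTC libraries. The share of genes that the paper reports as reduced in KO matches the SC libraries only. The paper's ranked list also places Gfap and Mbp near its top. Between the TTC libraries, 247 transcripts fell further than Gfap and 1243 further than Mbp. The paper's comparison thus appears to use the SC libraries, but its text does not name the RNAi of that comparison. Footprints of Ltn1 numbered 10 in WT SC against 37 in KO SC, and 2 in WT TTC against 0 in KO TTC, so that the start site of the deleted gene was highest in a library labelled KO. Whether this start site lies outside the deleted part is not known here, and KO below means a library labelled KO. Libraries held 1460425 to 3655827 reads in all, of which 6.06% to 6.85% lay at the listed start sites. A single read was worth 0.274 RPM (reads at a start site, scaled to the size of the library) in KO TTC and 0.685 RPM in WT TTC. Of 28 neuronal markers, 27 had reads, led by Tubb3, Stmn2, Mapt and Thy1, while the start site of Elavl4 was at 0 in every library. Having reads does not tell cell types apart, since only 1 of 22 measured astrocyte genes was at 0 in every library.

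Cultures of the cortex hold, beside neurons, the glia that arise from the same progenitors. Oligodendrocyte precursors pass through a committed stage marked by the receptor Gpr17 before they make myelin, the sheath that contains myelin basic protein, the product of Mbp. Astrocytes carry the intermediate filament protein GFAP, and Hes5 is a transcriptional repressor that Notch signalling induces in radial glia, where it holds back neuronal differentiation. The Mbp locus also encodes golli proteins from an upstream start, and these are known in neurons. The sources used here do not state which start site the transcript listed for Mbp uses.

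Hes5 and Gfap answer to signals that glial cells receive, and the short stretches shown here are the parts of their promoters that hold the letters of the responding factors. Capitals mark GTGGGAA, the core of the site of RBPJ, the DNA-binding partner of Notch, or its reverse complement TTCCCAC, in the Hes5 promoter, and TTCCNGGAA, a site of the STAT factors that drive astrocyte genes, in the Gfap promoter. Both strands were searched, in the RefSeq promoters of GRCm38.p6 from 250 bases before to 50 bases after a start.
Hes5, chr4:154960686-154960715, plus strand: gggcgagcgcgTTCCCACagcccggacatt
Hes5, chr4:154960829-154960858, plus strand: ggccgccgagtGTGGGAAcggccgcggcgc
Gfap, chr11:102897183-102897212, minus strand: atgggggtgcTTCCAGGAAgtcaggggcag
Letters of the RBPJ core were present in 6.38% of all 32851 promoters of this length, and those of the STAT site in 1.15%. The matches begin 226 and 83 bases before the Hes5 start and 2 bases before the Gfap start of the promoter table. A match of letters is a description and does not show that a factor was bound in these cells. Hes5 lies on chromosome 4 from 154960626 to 154962372, and Gfap on chromosome 11 from 102887336 to 102897200, both in GRCm38.p6, and the promoter table counts from a Hes5 start that lies inside this span.

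The oligodendrocyte marker Mbp (ENSMUST00000123251.8) had footprints in 3 of the 4 libraries. Its start site, in a gene that spans 82475091 to 82585637 of chromosome 18, held 20 reads in WT SC against 0 in KO SC, and 23 in WT TTC against 38 in KO TTC. As levels these were 9.54 RPM in WT SC (exact Poisson limits, 95%, 5.83–14.7), 15.7 RPM in WT TTC (9.98–23.6) and, in the deepest library, 10.4 RPM in KO TTC (7.36–14.3). KO SC stood apart from the other 3 libraries, which did not differ from their neighbours in the order beyond counting error. At the rate of WT SC, KO SC would have held 25.5 reads. Its 0 reads have an exact 95% upper limit of 1.38 RPM, and for folds they were raised to 3 reads, which is 1.12 RPM. Against that floor of 3 reads, Mbp was 8.50-fold lower in KO SC relative to WT SC and 9.26-fold lower than in KO TTC. With the counting error of both libraries, the exact 95% lower limits of these folds were 6.30 and 7.17. Of all transcripts, Mbp was the single one with 0 reads in KO SC and at least 20 in each of the other 3 libraries, where 20 is the lowest count of Mbp among those 3. The same pattern around WT TTC was held by 7 transcripts, around WT SC by 1 and around KO TTC by 0. The cut was set by Mbp itself and the libraries differ in depth, so nothing is read from these counts. Just under the cut, Ntan1 had 26 reads in WT SC against 0 in KO SC, and 17 in WT TTC against 22 in KO TTC.

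Gpr17 (ENSMUST00000064016.5), the receptor of committed oligodendrocyte precursors, was read in the TTC libraries and in neither SC library. The gene spans 31942999 to 31949890 of chromosome 18, and its start site held 0 reads in WT SC against 0 in KO SC, and 38 in WT TTC against 24 in KO TTC. Levels were 26.0 RPM in WT TTC (exact Poisson limits, 95%, 18.4–35.7) but 6.56 RPM in KO TTC (4.21–9.77), so the genotypes differed 3.96-fold (exact interval of the ratio 2.32 to 6.91) within the TTC code. Between codes, Gpr17 was 18.2-fold higher in WT TTC relative to WT SC and 5.85-fold higher in KO TTC relative to KO SC, against a floor of 3 reads in the library at 0. The exact 95% lower limits of these folds, with the counting error of both libraries, were 14.1 and 4.40. In the order of levels WT TTC stood above KO TTC, and both stood above the SC libraries, between which no order can be given. At the rate of WT TTC, the deeper library WT SC would have held 54.5 reads, and at the rate of KO TTC, KO SC would have held 17.5. Counting transcripts with 0 reads in both SC libraries and at least 20 in both TTC libraries gave 5, and the reverse pattern gave 7.

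Gfap (ENSMUST00000067444.9), the filament protein of astrocytes, differed with the labelled genotype in both codes. Its start site held 38 reads in WT SC against 5 in KO SC, and 28 in WT TTC against 26 in KO TTC. Corresponding levels were 18.1 RPM in WT SC (exact Poisson limits, 95%, 12.8–24.9) against 1.87 RPM in KO SC (0.607–4.37), and 19.2 RPM in WT TTC (12.7–27.7) against 7.11 RPM in KO TTC (4.65–10.4). Both WT libraries were high and did not differ beyond counting error (ratio 1.06, 0.625 to 1.77), and the sign of that small difference turned with other scalings. KO TTC was 2.70-fold lower than WT TTC (exact interval 1.52 to 4.79), and KO SC was 9.69-fold lower than WT SC (3.81–31.5). The libraries labelled KO were not alike, since KO TTC was 3.80-fold above KO SC (1.44–12.7).

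Hes5 (ENSMUST00000049621.6), the Notch-induced repressor, had footprints in every library and the highest mean of the 4 genes, 14.4 RPM. Its start site held 18 reads in WT SC against 15 in KO SC, and 42 in WT TTC against 54 in KO TTC. These were 8.59 RPM in WT SC (exact Poisson limits, 95%, 5.09–13.6) against 5.61 RPM in KO SC (3.14–9.26), and 28.8 RPM in WT TTC (20.7–38.9) against 14.8 RPM in KO TTC (11.1–19.3). The TTC libraries were higher than the SC libraries of the same genotype, 3.35-fold in WT (exact interval 1.89 to 6.18) and 2.63-fold in KO (1.46–5.02). Between genotypes, KO TTC was 1.95-fold lower than WT TTC (1.27–2.97), whereas KO SC and WT SC did not differ beyond counting error (1.53-fold, 0.728 to 3.26). Nor did KO TTC and WT SC, the neighbours in the middle of the order (1.72-fold, 0.993 to 3.12).

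**Figure D1:**
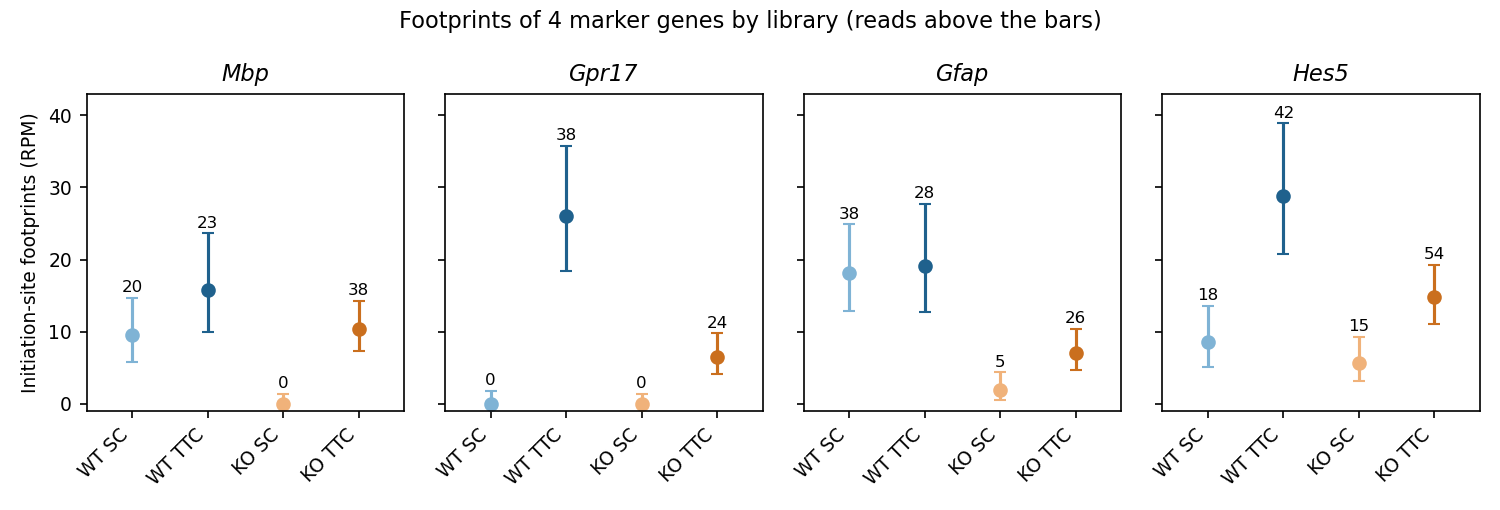
Footprints at the start sites of Mbp, Gpr17, Gfap and Hes5 in RPM (vertical axis) in the 4 libraries (horizontal axis), with exact Poisson 95% intervals as bars and reads printed above. Each gene is highest in WT TTC and lowest or at 0 in KO SC, and Gpr17 is at 0 reads in WT SC as well.

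Summed over the 4 genes, 36.3 RPM were read in WT SC (76 reads), 89.7 RPM in WT TTC (131 reads), 7.48 RPM in KO SC (20 reads) and 38.8 RPM in KO TTC (142 reads). The sum was highest in WT TTC and lowest in KO SC, and WT SC and KO TTC lay close together. Set against the reads of the 28 neuronal markers, the 4 genes had 1.44% in WT SC against 0.286% in KO SC, and 3.69% in WT TTC against 1.54% in KO TTC. The 22 astrocyte genes measured the same way had 26.4% in WT SC against 22.5% in KO SC, and 30.6% in WT TTC against 28.4% in KO TTC. The 4 genes were chosen by their reads in these libraries, so nothing is read from their wider range. A lower value of such a marker in a bulk library can come from fewer cells of the type or from fewer footprints per cell, and these cannot be told apart here. In KO SC the sum was carried by Hes5, with 15 of its 20 reads. The ratio of Gfap to Hes5 reads was 2.11 in WT SC (exact interval 1.18 to 3.93) against 0.333 in KO SC (0.0948–0.965), and 0.667 in WT TTC (0.398–1.10) against 0.481 in KO TTC (0.289–0.782). By counting error alone, WT SC stood above the other libraries, whose intervals overlapped. Both genes were chosen by their reads here, so nothing is read from these ratios about astrocyte or progenitor genes. For Mbp and Gpr17, both of the oligodendrocyte lineage, WT SC had 20 reads of Mbp and 0 of Gpr17, and WT TTC had 23 and 38.

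For each pair of libraries, a transcript was counted as past 2-fold when it had more than 3 reads in at least 1 of them and its RPM, raised to at least 3 reads, differed by a factor of 2 or more. In KO SC against WT SC, Mbp and Gfap were past 2-fold lower, Hes5 was not, and Gpr17 could not be judged, against 15.1% of 4393 transcripts lower and 8.04% higher. In KO TTC against WT TTC, Gpr17 and Gfap were past 2-fold lower, against 12.4% of 4610 lower and 7.4% higher. In WT TTC against WT SC, Gpr17 and Hes5 were past 2-fold higher, against 16.7% of 4233 higher and 11% lower, and in KO TTC against KO SC all 4 genes were, against 16.4% of 4806 higher and 10.4% lower. These contrasts were in view when the genes were chosen, and nothing is read from the counts. Which direction held more transcripts in KO TTC against KO SC turned with other scalings. Gfap was past 2-fold lower in KO with both codes, as were 2.5% of 3921 transcripts, and Gpr17 and Hes5 were past 2-fold higher in TTC with both genotypes, as were 5.43% of 3957. By the size of the difference in log10(RPM + 1), 7 transcripts fell further than Mbp and 42 further than Gfap in KO SC against WT SC, 144 fell further than Gpr17 in KO TTC against WT TTC, and none rose further than Gpr17 in WT TTC against WT SC. All intervals here are for counting alone, and the spread between libraries was wider. The mean Pearson statistic, which is 1 under counting error, was 3.28 in the SC pair, 3.17 in the TTC pair, 4.15 in the WT pair and 5.12 in the KO pair over transcripts with at least 20 reads in the pair.

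**Figure D2:**
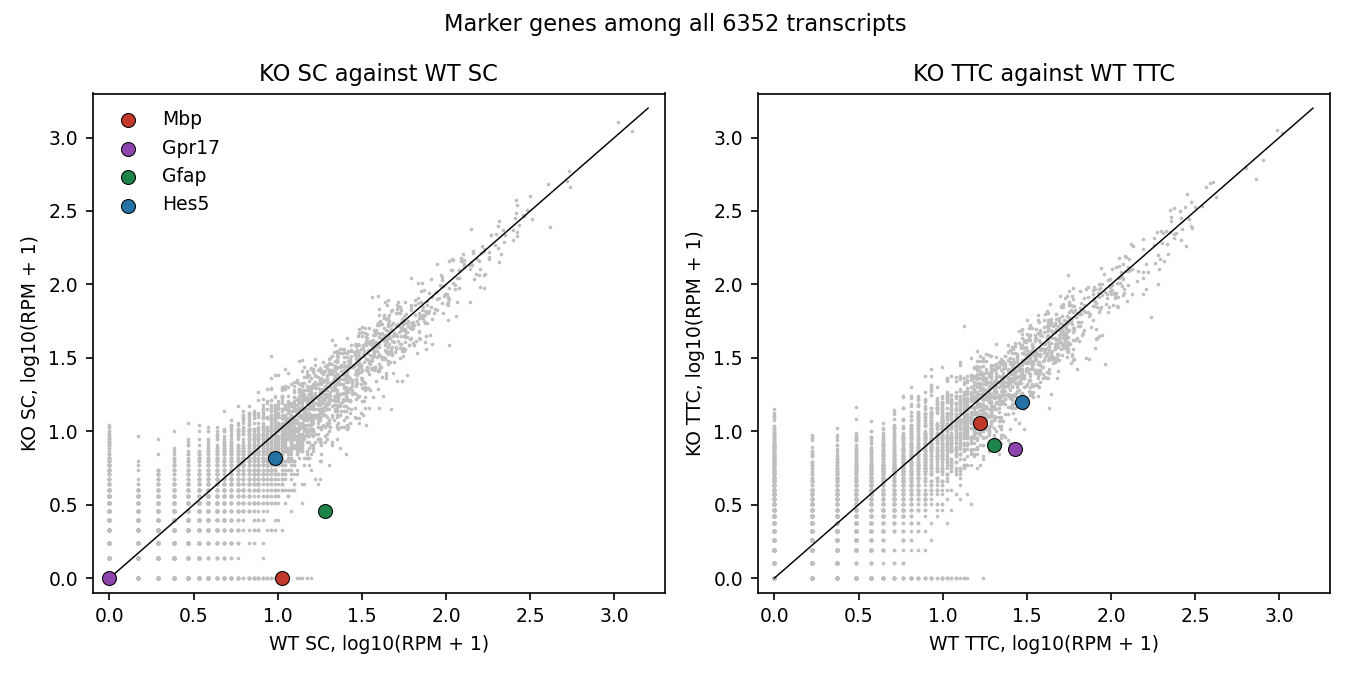
Levels of 6352 transcripts as log10(RPM + 1) in WT (horizontal axes) and KO (vertical axes) for the SC libraries (left) and the TTC libraries (right), with equal levels on the line. In the SC pair Mbp lies at 0 in KO SC and Gfap at 1.87 RPM, while in the TTC pair all 4 genes lie below the line and within the cloud or at its lower edge.

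Other genes of the oligodendrocyte lineage were compared with Mbp and Gpr17. Of 21 genes listed, 13 are in the table, and they held 81 reads in WT SC against 32 in KO SC, and 156 in WT TTC against 173 in KO TTC, the deepest library. Pdgfra, the growth factor receptor of precursors, was past 2-fold higher in TTC with both genotypes, with 2 reads in WT SC against 3 in KO SC, and 8 in WT TTC against 14 in KO TTC. Olig2, a transcription factor of the whole lineage, followed another course than Mbp, with 16 reads in WT SC (7.63 RPM) against 20 in KO SC (7.48 RPM), and 15 in WT TTC (10.3 RPM) against 23 in KO TTC (6.29 RPM), and was present in KO SC where Mbp and Gpr17 were at 0. Enpp6, an enzyme of newly forming oligodendrocytes named here after its values were seen, had 13 reads in WT TTC and 0 in each of the other 3 libraries. Bcas1 and Cldn11 were at 0 in all libraries.

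Without Mbp and Gpr17, 5 of the other 11 oligodendrocyte genes were lower and 1 higher in KO SC relative to WT SC, with 6 below and 3 above in KO TTC relative to WT TTC. In RPM, the ratio of their sums was 0.411 with the SC code (exact interval 0.259 to 0.641) and 0.467 with the TTC code (0.352–0.620). Between codes, 6 were higher and 2 lower in WT TTC relative to WT SC (ratio of sums 2.24, 1.60 to 3.14), and 6 were higher and 1 lower in KO TTC relative to KO SC (2.54, 1.70 to 3.89). Of all transcripts, 43.3% were higher and 40.9% lower in the first of these comparisons, and 51.5% were higher and 37.1% lower in the second. With Mbp and Gpr17 included, the median difference in log10(RPM + 1) was 0 in KO SC against WT SC, -0.167 in KO TTC against WT TTC, 0.116 in WT TTC against WT SC and 0.260 in KO TTC against KO SC. Over all 6352 transcripts the medians were 0, 0, 0 and 0.0126 in the same order, with 46.3% of transcripts lower in KO SC relative to WT SC and 42.1% lower in KO TTC relative to WT TTC. The list had shown low values in the KO libraries in an earlier analysis of these data, and its counts are no independent evidence of a direction.

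Astrocyte genes as a group did not follow Gfap. Of 24 listed, 22 are in the table, and they were led by the lipid carrier Apoe, the glycolytic enzyme Aldoc, the secreted protein Sparcl1 and the glutamine synthetase Glul. Apoe had 264 RPM in WT SC against 212 RPM in KO SC, and 289 RPM in WT TTC against 278 RPM in KO TTC, and Glul had 46.8, 65.8, 56.8 and 55.5 RPM in the same order. Where Gfap was 9.69-fold lower in KO SC relative to WT SC, the other 14 genes with more than 3 reads there ranged from -0.89 (the glutamate transporter Slc1a2) to 1.39 (the GABA transporter Slc6a11) on the log2 scale, with a median of 0.19. In KO TTC against WT TTC, 17 others ranged from -1.32 (the transcription factor Sox9) to 1.22 (Slc6a11), with a median of -0.07, and Gfap lay at -1.43, below all of them in both comparisons. In the TTC pair, Sox9 lay within the counting interval of Gfap. Gfap was chosen by its reads in these libraries, so nothing is read from its place below the others. Slc6a11 was past 2-fold higher in KO with both codes, opposite to Gfap, and past 2-fold higher in TTC with both genotypes, with 2 reads in WT SC against 10 in KO SC, and 6 in WT TTC against 35 in KO TTC. Ttyh1 was at 0 in all libraries.

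Summed over the 22 genes, the astrocyte level was 662 RPM in WT SC against 588 RPM in KO SC, and 744 RPM in WT TTC against 717 RPM in KO TTC. The ratio of sums was 0.888 in KO SC against WT SC (exact interval 0.825 to 0.955) and 0.964 in KO TTC against WT TTC (0.898–1.04), where the sign turned with median-of-ratios scaling. It was 1.12 in WT TTC against WT SC (1.04–1.22) and 1.22 in KO TTC against KO SC (1.15–1.30). In the same 4 comparisons the sum over all transcripts had ratios of 0.950, 0.977, 1.07 and 1.11. Members lower and higher between genotypes numbered 9 and 10 with the SC code and 14 and 6 with the TTC code, and the median differences in log10(RPM + 1) were 0 and -0.0199. Of all transcripts, 46.3% and 42.1% were lower in KO with these codes. In WT TTC against WT SC, 16 members were higher and 5 lower (median 0.0579), and in KO TTC against KO SC, 14 were higher and 5 lower (median 0.102), beside 43.3% and 51.5% of all transcripts higher.

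Few neural progenitor genes were measured beside Hes5. Of 15 listed, 6 could be analysed here. Sox2, a transcription factor of neural stem cells, had 4 reads in WT SC against 3 in KO SC, and 9 in WT TTC against 12 in KO TTC, and was past 2-fold higher in TTC with both genotypes, as Hes5 was. Ednrb, the endothelin receptor of radial glia and astrocytes, had 2.86 RPM in WT SC against 4.12 RPM in KO SC, and 9.59 RPM in WT TTC against 8.21 RPM in KO TTC. Vim, the intermediate filament protein of radial glia, had 24.3 RPM in WT SC against 17.2 RPM in KO SC, and 19.2 RPM in WT TTC against 25.2 RPM in KO TTC and did not share the order of Hes5. Lhx2, a transcription factor of the cortical anlage, had 5, 1, 4 and 3 reads in that order and was past 2-fold lower in KO with both codes.

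The 5 progenitor genes other than Hes5 had a ratio of summed levels of 0.725 in KO SC against WT SC (exact interval 0.503 to 1.04) and 0.869 in KO TTC against WT TTC (0.640–1.19), both of which span 1. In WT TTC against WT SC the ratio was 1.37 (0.954–1.97), with 4 genes higher and 1 lower, and in KO TTC against KO SC it was 1.64 (1.21–2.26), with 4 higher and 0 lower. Of all transcripts, 43.3% and 51.5% were higher in these comparisons. With Hes5 included, the median differences in log10(RPM + 1) were -0.140, -0.250, 0.415 and 0.206 in the 4 comparisons.

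Genes of the Notch pathway were set beside Hes5, its target. Of 23 listed, 10 are in the table, led by the ligand-like Dner, by Hes5 itself, by Ncstn, a subunit of the gamma-secretase that cleaves Notch, and by Numbl, an inhibitor of Notch. Dner had 26.7 RPM in WT SC against 17.6 RPM in KO SC, and 91.8 RPM in WT TTC against 27.6 RPM in KO TTC, and Ncstn had 5.25, 1.87, 6.16 and 6.56 RPM in the same order. Numbl had 1.91, 4.12, 2.74 and 3.83 RPM in that order, higher in the KO libraries. In WT TTC 8 of the 10 were above WT SC and in KO TTC 6 were above KO SC, Hes5 among them both times, with median differences in log10(RPM + 1) of 0.400 and 0.154, beside 43.3% and 51.5% of all transcripts higher. In KO SC 4 were below and 3 above WT SC, and in KO TTC 6 were below and 4 above WT TTC, with medians of 0 and -0.264. Of all transcripts, 46.3% and 42.1% were lower in these comparisons. Hes5 was chosen by its reads, so the sums were also taken without it. The log2 ratio of summed RPM was then 1.66 in WT TTC against WT SC and 0.76 in KO TTC against KO SC. Between genotypes it was -0.45 in the SC libraries and -1.35 in the TTC libraries. These sums were led by Dner, and several of the other genes lay near the floor of 3 reads. Notch1, the receptor, had 8 reads in WT TTC and 0 in the other 3 libraries.

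Among intermediate filament genes, the neuronal Nefm was lower in KO with both codes, as Gfap was, but by less than 2-fold. The neuronal Nefl was lower in KO with the SC code and higher with the TTC code. Nefm had 27.2 RPM in WT SC against 17.2 RPM in KO SC, and 14.4 RPM in WT TTC against 10.7 RPM in KO TTC, and Nefl had 9.54, 6.73, 6.85 and 15.6 RPM in the same order. The 6 measured genes of this list, Gfap among them, had 5 members lower and 1 higher in KO SC relative to WT SC, and 3 lower and 3 higher in KO TTC relative to WT TTC. Their medians were -0.167 and -0.00349 in log10(RPM + 1), beside 46.3% and 42.1% of all transcripts lower. In WT TTC against WT SC 5 were lower and 1 higher (median -0.154), and in KO TTC against KO SC 2 were lower and 4 higher (median 0.158). Of all transcripts, 40.9% and 37.1% were lower in these comparisons.

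Neuronal markers gave the level against which the 4 genes can be read. Their sum was 2510 RPM in WT SC against 2612 RPM in KO SC, and 2430 RPM in WT TTC against 2523 RPM in KO TTC, with 1 gene, Tubb3, at a mean of 1114 RPM. The ratios of sums were 1.04 in KO SC against WT SC (exact interval 1.00 to 1.08), 1.04 in KO TTC against WT TTC (0.999–1.08), 0.968 in WT TTC against WT SC (0.927–1.01) and 0.966 in KO TTC against KO SC (0.936–0.997). Without Tubb3 the direction turned in KO SC against WT SC (0.918, 0.874 to 0.964) and in KO TTC against KO SC (1.08, 1.04 to 1.13). Of the 28 genes, 18 were lower and 7 higher in KO SC relative to WT SC, with 13 below and 14 above in KO TTC relative to WT TTC. The TTC library was lower for 16 and higher for 11 of them in WT, and lower for 11 and higher for 16 in KO. Of all transcripts, 46.3%, 42.1%, 40.9% and 37.1% were lower in these comparisons, in the order given. Of the markers of microglia and of vascular cells or fibroblasts, 1 of 12 and 1 of 15 genes could be analysed here. Dcn of the latter list had 4 reads in each KO library and 0 in the WT libraries.

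**Figure D3:**
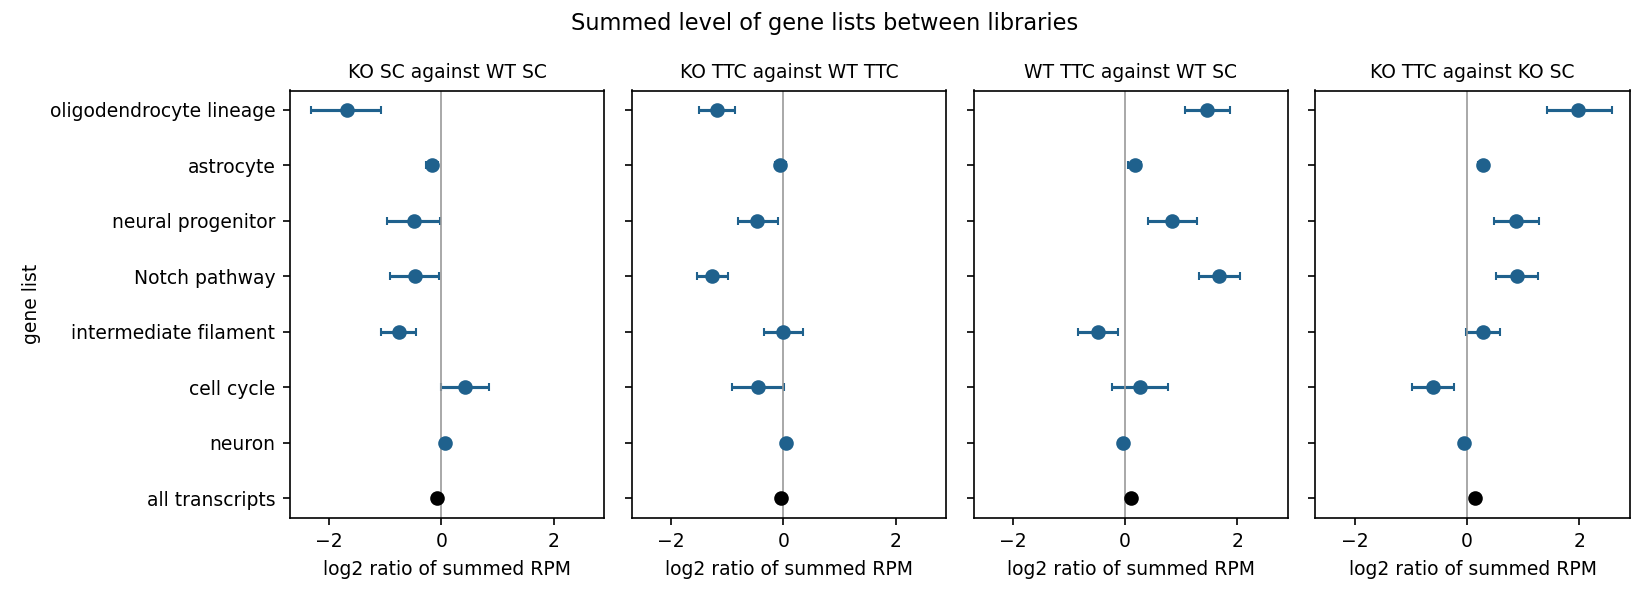
Ratio of summed RPM on the log2 scale (horizontal axes) for 7 gene lists and all transcripts (vertical axis) in the 4 comparisons, with exact 95% intervals for counting error as bars. The oligodendrocyte lineage is at -1.69 (SC libraries) and -1.17 (TTC libraries) between genotypes, while astrocyte genes, neuronal genes and all transcripts lie within 0.3 of 0. Leaving out Mbp and Gpr17, which were chosen by their reads, gives -1.28 and -1.10 for the oligodendrocyte lineage (not plotted). In the same order, the Notch pathway is at -0.48 and -1.26 and the intermediate filament genes at -0.76 and 0.001. Progenitor genes are at -0.50 and -0.46, and cell cycle genes at 0.42 and -0.46.

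Likeness of pattern was measured as the Euclidean distance between the shares that the 4 libraries take of the summed RPM of a transcript, over transcripts with at least 20 reads in the 4 libraries together. With 4 libraries such a distance describes these libraries only. Nearest to Hes5 among 3702 transcripts were Sox2 (distance 0.0118), the phosphatase Ptpn1 (0.0213) and the axonal protein Shtn1 (0.0213), and 83 transcripts lay within 0.1. Nearest to Gpr17 were Zpr1 (0.00586), Rufy2 (0.0487) and 2700062C07Rik (0.0961), the only 3 within 0.1, each with 0 reads in both SC libraries. Setd7 (0.0403), Pde4dip (0.0518) and the neuronal RNA-binding protein Elavl3 (0.0614) were nearest to Mbp, with 15 transcripts within 0.1. Elavl3 had 23 reads in WT SC against 5 in KO SC, and 30 in WT TTC against 42 in KO TTC. The malic enzyme Me1 (0.0502) and Ntan1 (0.0705) were among the 3 nearest to Gfap, with 13 within 0.1. Of the 12 nearest transcripts, Sox2 was the only gene of a glial or progenitor list, and Elavl3 is on the neuronal list. Between the 4 genes, Mbp and Hes5 were closest (0.167, with 166 transcripts nearer to Mbp than Hes5 was), and Gpr17 and Gfap were farthest apart (0.552).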

How the data were processed

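The deposited table gives RPM, which the authors computed from footprints at the translation initiation (ATG) site and the total reads of the library, for 6352 transcripts. Per the labels' processing notes, Bowtie, SAMtools and bedtools were used with GRCm38 (mm10). Versions, the window counted and the choice of transcripts are not given in the sources used here. Division by the value of a single read gave whole reads within 1e-06 for 100% of values above 0. Symbols came from Dataset S1 through transcript identifiers for 6351 transcripts, after 38 identifiers with 1 digit too many and 14 symbols with l and 1 exchanged were mended. Another 110 symbols are not in the reference tables.

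Genes and the 9 gene lists were chosen with earlier results of these data known. With 1 library per condition no test was made on them. Intervals are exact Poisson (levels) or exact conditional binomial (ratios) at 95% and cover counting error only. Levels were raised to 3 reads for folds. The genes named were the 4 members, the 4 highest of each list and those at 0, genes of the oligodendrocyte lineage, astrocyte and progenitor lists past 2-fold the same way in both comparisons of a kind, and the 3 nearest patterns; others are said to be named after their values were seen, as were Notch1, Slc1a2 and Sox9. Some genes that this rule names are not reported here. As an alternative, a quasi-likelihood model of edgeR took the recovered reads, with genotype and code as additive terms and 1 residual degree of freedom, after a check on simulated data. Python 3.11.15, numpy 2.4.6, pandas 2.3.3, scipy 1.17.1, matplotlib 3.10.9, R 4.3.3 and edgeR 4.0.16 were used.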

Additional observations from a re-analysis of the deposited data

How the results depend on the processing

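Of 60 values of Mbp, Gpr17, Gfap and Hes5 under rescaling to the same sum over the listed sites, median-of-ratios factors, log2(RPM + 1) and log2(RPM + 0.1), 56 stayed within the counting interval of the reported log2 ratio or, against a library at 0 reads, within 1.5-fold of it. The other 4 were set against 0 reads and followed the pseudocount: with log2(RPM + 0.1), Mbp became -6.59 in KO SC against WT SC (-3.09 at the floor) and 6.71 in KO TTC against KO SC (3.21), and Gpr17 became 8.03 in WT TTC against WT SC (4.18) and 6.06 in KO TTC against KO SC (2.55). Median-of-ratios factors moved all differences by 0.14 in KO SC against WT SC, 0.06 in KO TTC against WT TTC, -0.10 in WT TTC against WT SC and -0.17 in KO TTC against KO SC (log2), and the sums over sites by 0.07, 0.03, -0.10 and -0.14. Of 136 values for list sums, 120 stayed within their interval. With sums over sites, the log2 ratio became 0.14 for astrocyte genes in KO TTC against KO SC, and for neuronal genes 0.13 in KO SC against WT SC, -0.15 in WT TTC against WT SC and -0.19 in KO TTC against KO SC. With median-of-ratios factors it became -0.032 for astrocyte genes in KO SC against WT SC and 0.11 in KO TTC against KO SC, and for neuronal genes 0.20, 0.11, -0.14 and -0.22 in the 4 comparisons. Without Mbp and Gpr17 the oligodendrocyte list had 1.34 in KO TTC against KO SC. Without its highest gene, the progenitor list (Vim left out) had -0.96 in KO TTC against WT TTC and 1.74 in WT TTC against WT SC, the Notch list (Dner left out) had -0.68 in KO TTC against WT TTC, and the neuronal list (Tubb3 left out) reversed to -0.12 in KO SC against WT SC and 0.11 in KO TTC against KO SC.

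At a mean of at least 5 RPM, where fewer transcripts are counted, those past 2-fold lower and higher numbered 205 and 92 in the SC pair (662 and 353 without it), 137 and 149 in the TTC pair (573 and 341), 196 and 268 in the WT pair (464 and 709) and 97 and 278 in the KO pair (498 and 790). With sums over sites and no such cut, they numbered 617 and 387 in the SC pair and 703 and 617 in the KO pair. Median-of-ratios factors gave 486 and 479 in the SC pair and 719 and 604 in the KO pair. The larger direction thus turned in the KO pair, and the SC pair became nearly even with median-of-ratios factors. In the TTC and WT pairs the larger direction stayed with both scalings. Of 3703 transcripts with recovered reads in the edgeR model, 0 passed for genotype and 0 for code after adjustment. At an unadjusted p under 0.05, genotype gave 150 down and 97 up (102 and 133 with TMM), and code gave 153 and 341 (213 and 242). With distances between centred log2 levels, 1 of the 3 nearest transcripts was shared for Mbp, 1 for Gpr17 and 1 for Gfap, and 2 for Hes5; the cause was not tested. No paired analysis was possible because each condition has 1 library and no replicate numbers to pair by, and none could be left out of a group; code entered the edgeR model as a term beside genotype. The spread between cultures of 1 condition was not measured.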

Other observations

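Of 10 genes of the cell cycle listed, 4 are in the table. Top2a, the topoisomerase of dividing cells, had 8 and 6 reads in WT SC and WT TTC and 0 in both KO libraries, and Ccne1, the cyclin of the entry into S phase, had 7 and 9 reads in the WT libraries and 0 in both KO libraries. The share of all transcripts with reads in the WT libraries alone was not counted, so nothing is read from this pattern. KO SC and KO TTC were the deeper libraries, with 2673112 and 3655827 reads. Pcna, the sliding clamp of DNA replication and repair, had 13.8 RPM in WT SC against 22.4 RPM in KO SC, and 20.5 RPM in WT TTC against 16.7 RPM in KO TTC, and Ccnd1, a cyclin of the first gap phase, had 14.8, 25.4, 12.3 and 14.8 RPM in the same order. The sum of the 4 genes was 1.34 times WT SC in KO SC (exact interval 0.999 to 1.80) and 0.729 times WT TTC in KO TTC (0.532 to 1.01), opposite directions with both intervals spanning 1. Counting error is the only error covered by these intervals.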
